A study of Rattus norvegicus with 12 samples.

Results

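The genes described here encode elastin, the fibrillins, the fibulins and the microfibril-associated proteins, the building blocks of elastic fibres. They were the 10 rows of the count table named Eln, Fbn1, Fbn2, Fbln1, Fbln2, Fbln5, Efemp1, Efemp2, Mfap4 and Mfap5, of 30560 genes listed. The rule took them by name, but the family was picked with earlier results of these data known. All 10 were among the 18182 genes tested, those with at least 10 counts in total. Elastic fibres are made when cells secrete tropoelastin, which is deposited on a scaffold of fibrillin microfibrils with the help of fibulins and is then crosslinked by lysyl oxidases. They give arteries and the connective tissue of the heart their recoil, and the same microfibrils hold latent TGF-beta complexes in the matrix.

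RNA was sequenced from the hearts of male Wistar rats that were 7 weeks old at surgery. In the MI and MI + UA groups the left anterior descending coronary artery was tied permanently, which causes a myocardial infarction, while the Sham rats had their chest opened without the ligature. MI + UA rats received urolithin A (UA), a gut-microbial metabolite that induces mitophagy, by daily gavage for 8 weeks, and both the MI and the Sham rats received the vehicle. Each group held 4 rats with 1 library per rat, made from 20 µm sections of formalin-fixed, paraffin-embedded tissue from the middle of the heart. Such sections hold all cell types, so that more cells of a type and more RNA per cell cannot be told apart. Rat 66 carries the MI + UA label but stands with the vehicle-treated MI rats in a supplementary list of the study. It was counted as MI + UA.

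The libraries held between 6228706 and 19031695 reads on genes, of which the 13 mitochondrially encoded genes took 50.2% to 58.6%. Cardiomyocyte markers were abundant in every library, with a sum over 7 genes of 30520 to 49999.8 CPM (reads on a gene scaled to one common library size), while 3 atrial markers summed to between 2.34 and 12.5 CPM. Reads that the counting matched to no gene feature, which need not lie outside genes, were 42.5% to 45.5% of counted reads in Sham. The share was 46.1% to 48.9% in MI and 45.0% to 50.2% in MI + UA. It was higher in every MI library than in every Sham library. Its part in the comparisons with Sham was not tested. No batch was given in the labels.

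Upstream sequence was available for 7 of the 10 genes, as the 250 bases before and the 50 bases after the start site in RefSeq's GRCr8 assembly. It is shown for the gene with the largest fold change after infarction, Mfap5, and for the gene with the smallest, Efemp1, so that both can be read beside their values. Capitals mark CG dinucleotides, 7 in the 250 bases before the Mfap5 start (chr4:157399669-157399918, plus strand) and 5 in the 155 bases shown for Efemp1 (chr14:106811614-106811768, plus strand), which stop where RefSeq's gene begins.
Mfap5: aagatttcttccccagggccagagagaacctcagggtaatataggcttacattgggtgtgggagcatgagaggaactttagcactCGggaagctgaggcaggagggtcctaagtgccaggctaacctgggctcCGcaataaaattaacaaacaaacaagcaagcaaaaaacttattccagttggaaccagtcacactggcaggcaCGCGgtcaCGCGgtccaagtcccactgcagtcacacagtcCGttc
Efemp1: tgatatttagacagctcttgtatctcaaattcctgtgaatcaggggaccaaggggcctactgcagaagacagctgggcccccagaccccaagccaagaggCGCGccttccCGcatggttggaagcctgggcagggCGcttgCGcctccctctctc

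Over the whole 300-base window, Mfap5 held 8 CG dinucleotides at a GC content of 51.7%, and the median of 33469 rat windows was 7 at 51.7%. The other 6 windows ranged from 14 CG dinucleotides in Fbln5 and Efemp1 to 38 in Fbn2, with GC contents between 58.3% and 71.0%. The Sp1 motif GGGCGG, searched on both strands like all motifs here, occurred in the windows of Efemp1, Efemp2, Fbln2 and Fbln5, which is 4 of 7 against 33.1% of all windows. The TEAD motif GGAATG was found in Fbln5 and Fbn2, against 14.2% of all windows. The TATA box TATAAA (14.2% of all windows), the AP-1 motif TGACTCA (4.63%), the SMAD motif GTCTGTCT (1.82%) and the CArG box (1.64%) had no match in the 7 windows. The genes that rose after infarction and those that did not pass the test both included windows with an Sp1 match.

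After infarction 6 of the 10 genes rose. Eln, Fbn1, Fbln1, Fbln2, Mfap4 and Mfap5 were 2.24-fold to 2.93-fold higher in MI than in Sham, each past the threshold of edgeR's quasi-likelihood test (adjusted p-value under 0.05) and without overlap between the groups. Over all genes tested, 5.82% passed the same test in the upward direction. An unadjusted p-value under 0.05 was met by 8 of the 10 genes and by 23.9% of all genes. Lack of overlap was seen for 7 of the 10 genes, the 6 named and Fbln5, and for 15.7% of all genes. Fbn2, Fbln5, Efemp1 and Efemp2 did not pass. Over the 10 genes the median log2 fold change was 1.21, and over all genes tested it was 0.026. Levels are given below as CPM after TMM scaling. Gene lengths were not used, so a level is compared between rats and never between genes.

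**Figure D1:**
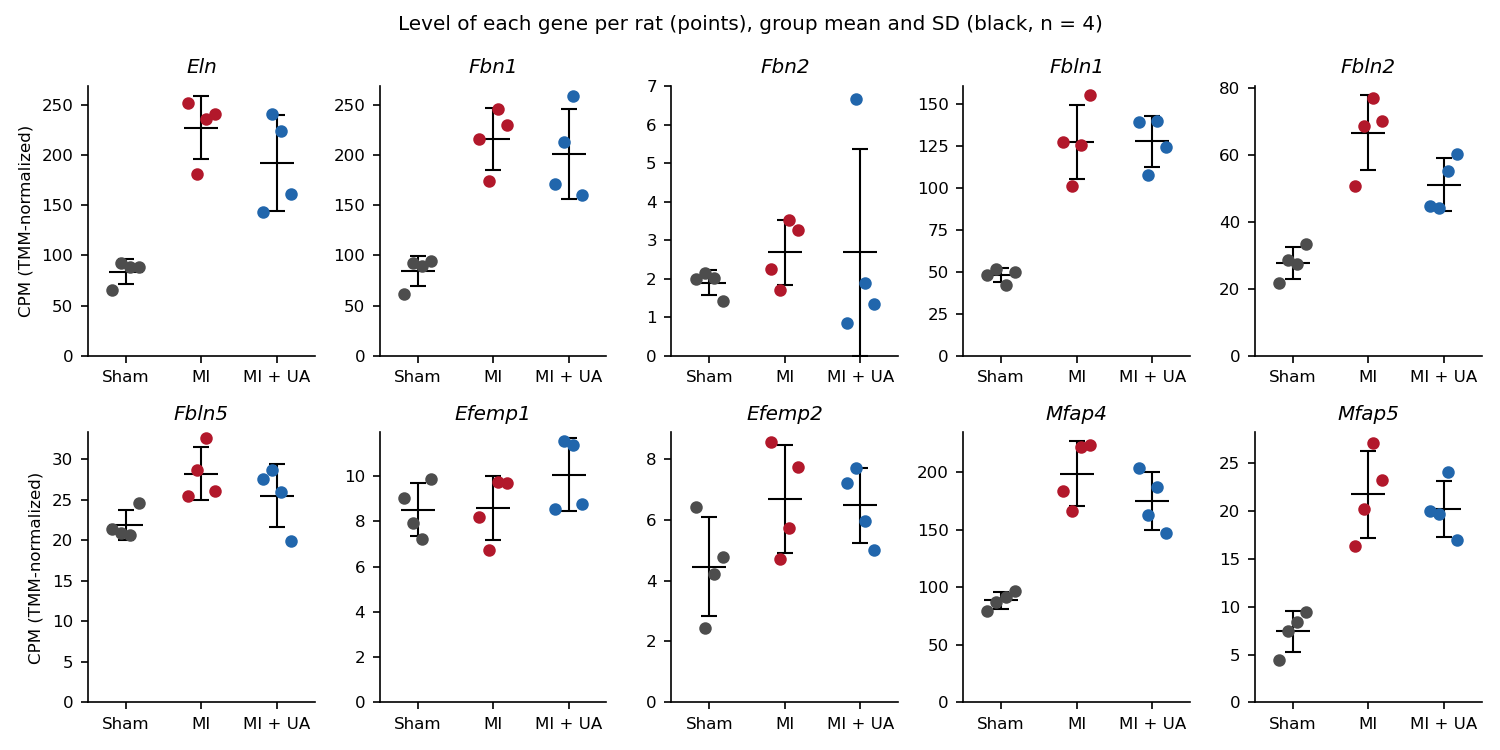
Level of each of the 10 genes in CPM (vertical axes, linear from 0, a scale of its own per gene) in the 3 groups; points are single rats, black bars the group mean and SD (n = 4). The MI and Sham points are apart for Eln, Fbn1, Fbln1, Fbln2, Fbln5, Mfap4 and Mfap5, and the MI + UA points overlap the MI points for all 10 genes.

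Eln (ENSRNOG00000001469) encodes tropoelastin, the soluble precursor of the elastic core. Its level in the Sham rats was 65.6, 92.7, 88.9 and 88.3 CPM, in the MI rats 252, 181, 236 and 241 CPM, and in the MI + UA rats 143, 241, 223 and 161 CPM. Every infarcted heart thus lay above every Sham heart, and 2 of the MI + UA rats, 29 and 66, lay below all MI rats. The group means were 83.9 ± 12.3 CPM in Sham, 227 ± 31.7 CPM in MI and 192 ± 47.4 CPM in MI + UA (SD, n = 4 each). The rise in MI was 2.72-fold, a log2 fold change of 1.44 (95% confidence interval 1.13 to 1.75, edgeR adjusted p = 3.04e-06).

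Fbn1 (ENSRNOG00000007302) encodes fibrillin-1, the main structural protein of adult microfibrils. The Sham rats had 62.0, 92.4, 89.1 and 94.5 CPM, the MI rats 216, 174, 246 and 229 CPM, and the MI + UA rats 171, 213, 259 and 159.9 CPM. The MI rats again lay wholly above Sham, and the MI + UA rats spread to both sides of the MI rats. The rise in MI was 2.56-fold, a log2 fold change of 1.36 (95% confidence interval 1.05 to 1.67, edgeR adjusted p = 5.45e-06). Rat 12 was the lowest Sham rat for both Eln and Fbn1.

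Fbn2 (ENSRNOG00000043219), the gene of the fibrillin used mostly in development, was read rarely, with 11 to 52 counts per library. Its Sham levels were 2.01, 2.16, 2.02 and 1.43 CPM, its MI levels 2.27, 1.72, 3.53 and 3.26 CPM, and its MI + UA levels 0.857, 6.68, 1.89 and 1.35 CPM. The 3 groups overlapped, and rat 58 of the MI + UA group stood far above all other rats. The log2 fold change in MI was 0.53 with a 95% confidence interval of -0.47 to 1.53 (edgeR adjusted p = 0.566), an interval that still holds the change measured for Fbn1. Its spread between rats beyond counting error, the biological coefficient of variation, was 41.1%, against 14.9% for Fbn1 and 13.3% over all genes.

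Fbln1 (ENSRNOG00000014137) encodes fibulin-1, a matrix glycoprotein of basement membranes and elastic fibres. The Sham rats had 48.4, 52.0, 42.1 and 49.7 CPM, the MI rats 127, 101, 126 and 155 CPM, and the MI + UA rats 139, 108.01, 139.7 and 124 CPM. Both infarcted groups covered nearly the same range, far from Sham. Its log2 fold change of 1.41 in MI (standard error 0.12) had the smallest adjusted p of the 10 genes (edgeR adjusted p = 1.88e-07).

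Fbln2 (ENSRNOG00000007338) encodes fibulin-2, which binds fibrillin-1 and tropoelastin. Its level was 21.7, 28.6, 27.6 and 33.5 CPM in the Sham rats, 50.8, 68.8, 77.0 and 70.1 CPM in the MI rats, and 45.0, 44.3, 55.2 and 60.4 CPM in the MI + UA rats. All infarcted hearts lay above Sham, and the MI + UA rats lay in the lower part of the infarcted range. In MI the log2 fold change was 1.26 (standard error 0.14, edgeR adjusted p = 7.35e-06).

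Fbln5 (ENSRNOG00000050539) encodes fibulin-5, which carries tropoelastin to microfibrils and binds integrins. The Sham rats had 21.5, 20.9, 20.7 and 24.7 CPM, the MI rats 25.4, 28.7, 32.7 and 26.2 CPM, and the MI + UA rats 27.6, 28.6, 26.0 and 20.0 CPM. Each MI rat was above each Sham rat, the closest pair by under 1 CPM, while rat 66 of MI + UA was below all others. The log2 fold change of 0.36 (95% confidence interval 0.10 to 0.61) missed the threshold after adjustment (edgeR unadjusted p = 0.00815, adjusted p = 0.0646). It lay at the threshold when only the MI and Sham rats entered the fit (edgeR adjusted p = 0.04996) or when genes with at least 1 count were kept (edgeR adjusted p = 0.0488). Of the 8 fits that left out 1 rat, 0 passed (edgeR adjusted p from 0.0512 to 0.208). Among the other alternatives the lowest change was 0.26, and the largest adjusted p by edgeR or DESeq2 was 0.190.

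Efemp1 and Efemp2 encode fibulin-3 and fibulin-4. Fibulin-4 is required for elastic fibre assembly and for lysyl oxidase to reach tropoelastin. Efemp1 (ENSRNOG00000003553) was at 9.03, 7.94, 7.24 and 9.90 CPM in Sham, 8.19, 6.74, 9.76 and 9.70 CPM in MI, and 8.57, 11.6, 11.4 and 8.78 CPM in MI + UA. These ranges lay on top of each other. The log2 fold change in MI was 0.016, and the 95% confidence interval of -0.33 to 0.36 lay below the estimates for the 6 genes that rose (edgeR adjusted p = 0.973). Its sign turned when any of 4 single rats was left out.

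Efemp2 (ENSRNOG00000020587) was at 6.40, 2.45, 4.21 and 4.77 CPM in Sham, 8.55, 4.70, 5.71 and 7.74 CPM in MI, and 7.199, 7.71, 5.95 and 5.01 CPM in MI + UA. The groups overlapped, with 13 of the 16 MI-Sham pairs of rats higher in MI. Its log2 fold change of 0.60 did not pass the test (edgeR adjusted p = 0.133). Without Sham rat 12, its highest Sham rat, the change was 0.83 with an edgeR adjusted p of 0.0498. Of the 8 fits that left out 1 rat this was the only 1 to pass, and the lowest change was 0.40.

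The microfibril-associated genes both rose. Mfap4 (ENSRNOG00000045683) encodes a fibrinogen-like protein that binds fibrillin and tropoelastin, and was at 79.5, 87.2, 91.7 and 96.3 CPM in Sham, 184, 166, 221 and 223 CPM in MI, and 203, 162, 187 and 147 CPM in MI + UA. Its Sham rats were tightly grouped and far below the infarcted rats, and the log2 fold change in MI was 1.16 (standard error 0.11, edgeR adjusted p = 1.26e-06). Mfap5 (ENSRNOG00000015505) encodes a small glycoprotein attached to fibrillin microfibrils, and was at 4.39, 7.51, 8.42 and 9.42 CPM in Sham, 16.4, 20.2, 27.1 and 23.3 CPM in MI, and 20.1, 19.7, 24.1 and 16.99 CPM in MI + UA. It had the largest fold change of the 10 genes, 2.93-fold or 1.55 on the log2 scale (standard error 0.19, edgeR adjusted p = 2.14e-05), again without overlap.

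The question of the second comparison was whether UA moved these genes in the infarcted heart. Between MI + UA and MI, 0 of the 10 genes passed edgeR's test, and 0% of all genes did. DESeq2 also called 0 of the 10. Only Fbln2 had an unadjusted p-value under 0.05, against 3.79% of all genes. It was 51.2 ± 7.91 CPM in MI + UA and 66.7 ± 11.2 CPM in MI (SD, n = 4 each), a log2 fold change of -0.38 (95% confidence interval -0.65 to -0.098, unadjusted p = 0.0105, edgeR adjusted p = 1.00). In 14 of the 16 pairs of rats the MI + UA rat was lower, and the groups overlapped.

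For Eln the log2 fold change between MI + UA and MI was -0.25 with a 95% confidence interval of -0.55 to 0.049, and for Mfap4 it was -0.18, from -0.41 to 0.041. Neither interval reached the size of the rise after infarction. Leaving out 1 rat moved Eln between -0.38 (without rat 58) and -0.13 (without rat 29), and Mfap4 between -0.27 (without rat 29) and -0.11 (without rat 66). Fbln1 gave 0.0034, from -0.23 to 0.23, an interval centred on no difference. The values for Fbn1, Mfap5, Fbln5 and Efemp2 were -0.11, -0.12, -0.15 and -0.089. Leaving out 1 rat moved Fbn1 between -0.26 (without rat 64) and -0.018 (without rat 66), and Fbln5 between -0.21 (without rat 58) and -0.038 (without rat 66). Fbn2 had -0.17 with an interval from -1.10 to 0.76, too wide to tell a fall from a rise, and Efemp1 had 0.19, from -0.14 to 0.51. Efemp1 moved between 0.11 and 0.26 when 1 rat was left out. With rat 66 counted in MI, the estimates for Fbn1, Fbn2, Fbln5, Efemp2 and Mfap5 turned positive, between 0.035 and 0.27, while Eln was -0.085, Mfap4 -0.031 and Fbln2 -0.44.

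**Figure D2:**
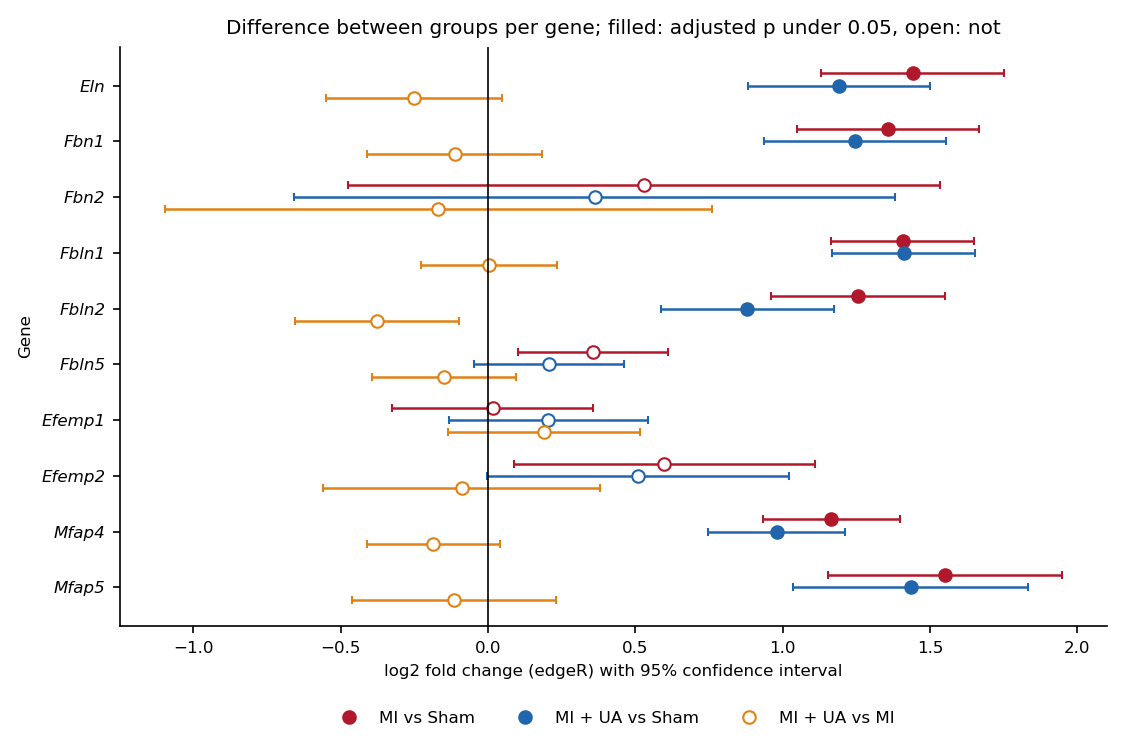
Log2 fold change (horizontal axis, edgeR estimate with its 95% confidence interval) of each gene in 3 comparisons; filled points had an adjusted p-value under 0.05. The same 6 genes are filled in both comparisons with Sham, and no point is filled for MI + UA vs MI, where the intervals of 9 of the 10 genes cross 0.

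The hearts with UA still differed from Sham at the 6 genes that had risen in MI. The log2 fold changes in MI + UA vs Sham were 1.19 for Eln, 1.24 for Fbn1, 1.41 for Fbln1, 0.88 for Fbln2, 0.98 for Mfap4 and 1.43 for Mfap5 (largest edgeR adjusted p = 0.000427, for Fbln2). They count as 6 of 10 genes against 5.16% of all genes in that direction, and at all 6 the groups did not overlap, as at 14.3% of all genes. The other 4 genes had values of 0.36 for Fbn2 (-0.55 without rat 58), 0.21 for Fbln5, 0.21 for Efemp1 and 0.51 for Efemp2, none past the threshold (smallest edgeR adjusted p = 0.232, for Efemp2). Leaving out 1 rat moved Fbln5 between 0.15 and 0.32, Efemp1 between 0.13 and 0.29 and Efemp2 between 0.31 and 0.74. Both comparisons with Sham use the same 4 Sham rats, so the likeness of their values was not tested.

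**Figure D3:**
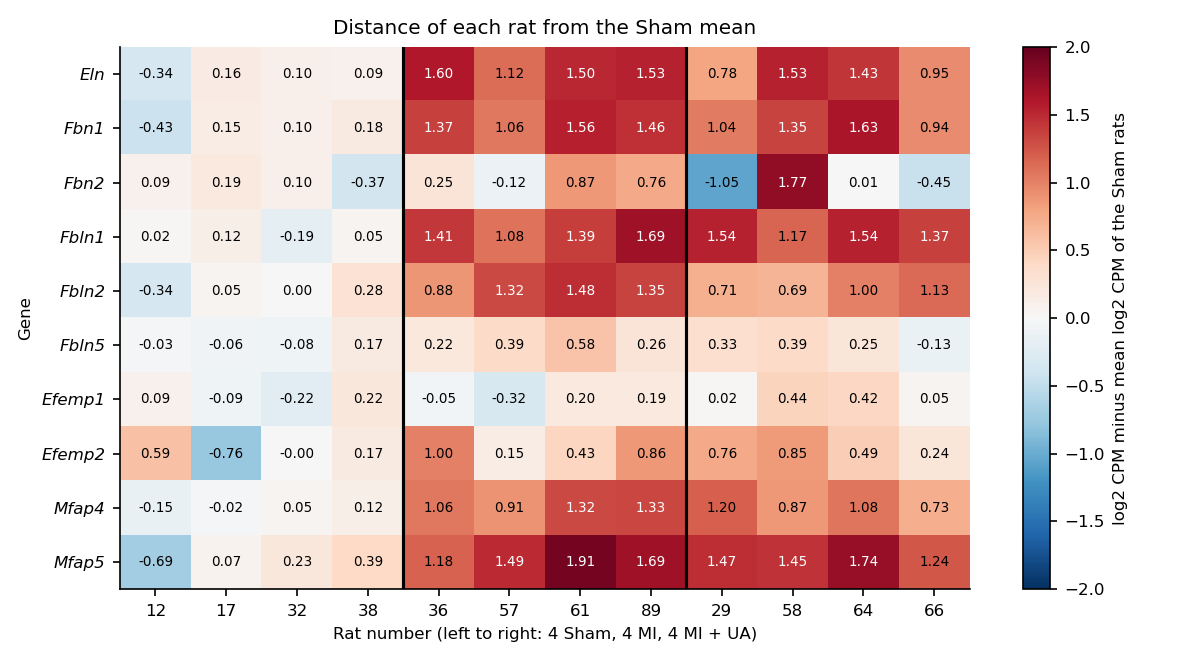
Log2 CPM of each gene (rows) in each rat (columns, numbered as in the labels) minus the mean log2 CPM of the 4 Sham rats; red is above and blue below that mean. Rows of Eln, Fbn1, Fbln1, Fbln2, Mfap4 and Mfap5 are red in all 8 infarcted rats, from 0.69 to 1.91, while Fbn2 ranges from -1.05 in rat 29 to 1.77 in rat 58.

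The infarcted rats differed from each other in how far the 6 genes lay above Sham. Averaged over the 6 genes, the log2 distance from the Sham mean was 1.25, 1.16, 1.53 and 1.51 in MI rats 36, 57, 61 and 89. In MI + UA rats 29, 58, 64 and 66 it was 1.12, 1.18, 1.40 and 1.06. The 2 groups overlapped. MI rat 57 was the lowest of its group for 4 of the 6 genes, and MI rat 61 the highest for 3. In the MI + UA group rat 64 was the highest for 3 genes and rat 66 the lowest for 3.

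Reads on all 10 genes together made up 320.5 to 413 CPM in Sham, 753 to 989 CPM in MI and 705 to 933 CPM in MI + UA. The ratio of counts within a rat shows whether members changed in step, free of library scaling. It was formed for 8 pairs of genes with 0.5 added to each count, and compared with a two-sided exact permutation test, for which 4 rats against 4 allow no p below 0.0286. The log2 ratio of Eln to Fbn1 stayed close in all rats, from -0.098 to 0.082 in Sham, from -0.058 to 0.22 in MI and from -0.26 to 0.18 in MI + UA. The mean difference between MI and Sham was 0.076 (exact permutation p = 0.343), with 0.027 to 0.12 when single rats were left out (without MI rats 36 and 61).

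The log2 ratio of Fbln5 to Eln was -1.61, -2.14, -2.10 and -1.84 in the Sham rats and -3.30, -2.65, -2.85 and -3.20 in the MI rats, which did not overlap. The difference of -1.08 had the smallest p the design allows (exact permutation p = 0.0286) and an adjusted p of 0.114 over the 8 pairs. Likewise Fbn2 against Fbn1 was lower in every MI rat than in every Sham rat, by -0.92 (exact permutation p = 0.0286, adjusted p = 0.114), from few Fbn2 reads. After adjustment 0 of the 8 pairs passed, and 2 had an unadjusted p-value under 0.05. With 4 rats against 4, at least 5 of the 8 pairs would have to reach the smallest p for any to pass, so this count says little. With rat 66 counted in MI, both pairs had an adjusted p of 0.0317 (exact permutation test).

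The remaining pairs overlapped between MI and Sham. Mfap5 against Mfap4 differed by 0.42 (exact permutation p = 0.0857), Efemp1 against Efemp2 by -0.61 (exact permutation p = 0.114) and Fbln1 against Fbln2 by 0.13 (exact permutation p = 0.600). Elastin was also set beside the crosslinking enzyme Lox and beside Col1a1, a chain of type I collagen. The Eln to Lox ratio differed by 0.38 (exact permutation p = 0.200) and the Eln to Col1a1 ratio by -0.096 (exact permutation p = 0.457). Single rats moved several of these differences. Without Sham rat 12 the values were 0.18 for Eln to Lox and 0.23 for Mfap5 to Mfap4, without MI rat 36 Eln to Lox was 0.24, without Sham rat 17 Efemp1 to Efemp2 was -0.38, and Fbln1 to Fbln2 ranged from 0.0046 (without MI rat 36) to 0.26 (without MI rat 57). With UA, 0 of the 8 pairs passed against MI, with unadjusted exact permutation p-values from 0.171 to 0.686.

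**Figure D4:**
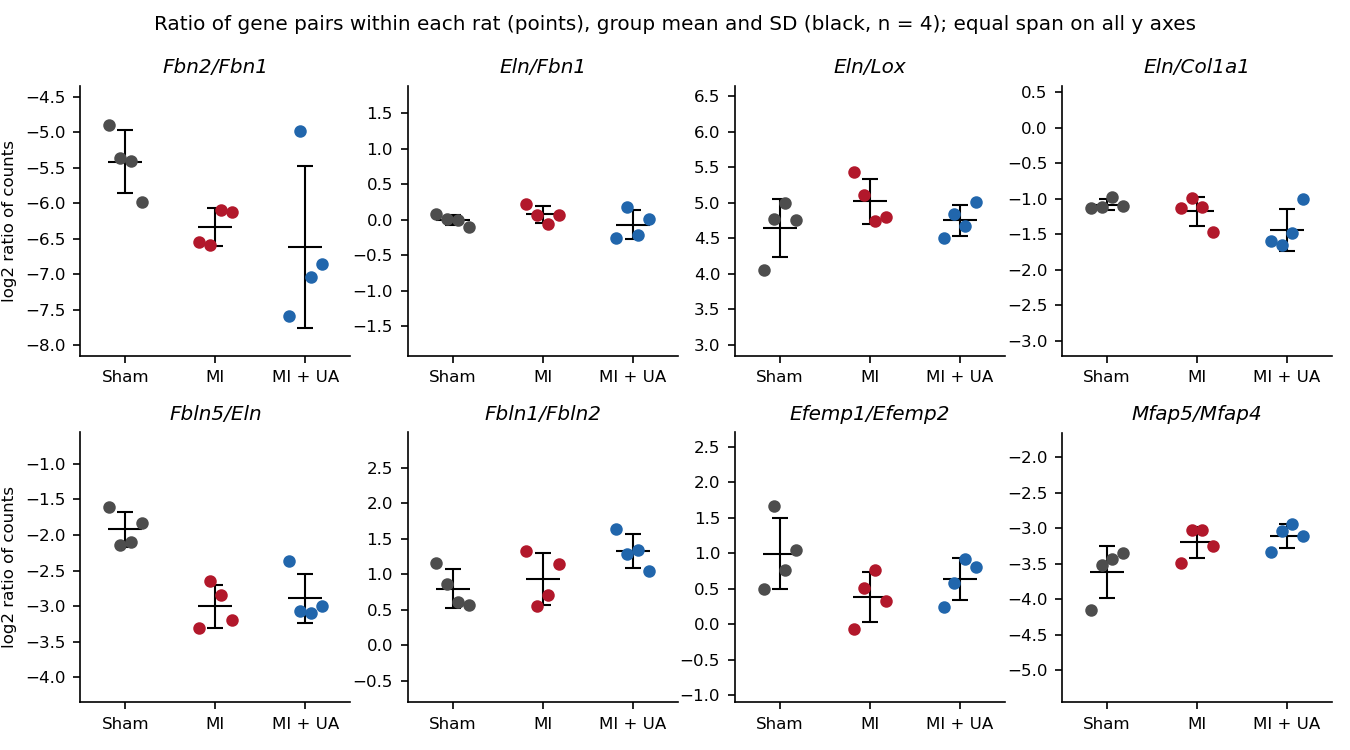
Log2 ratio of counts within each rat for 8 gene pairs (vertical axes, all of equal span but different position) in the 3 groups; points are rats, black bars the mean and SD (n = 4). The MI points lie wholly below the Sham points for Fbn2/Fbn1 and Fbln5/Eln, and the Eln/Fbn1 points stay between -0.26 and 0.22.

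Likeness of pattern was measured as the root mean square difference between centred log2 CPM profiles over the 12 rats, among 10930 genes with an average log2 CPM of at least 1. Within the family, Eln and Fbn1 were the closest pair (0.14) and Fbn2 and Mfap5 the farthest (0.93). Over all other candidates, the profile closest to Eln was that of Col3a1 (0.20), a chain of type III collagen, followed by Myof (0.20) and Fstl1 (0.21). For Fbn1 the closest were Fstl1 (0.16), Myof (0.16) and Loxl1 (0.16), the last a lysyl oxidase of elastic fibres. Mfap4 was closest to Tgfb3, Dpysl3 and Dse (0.13 each). The nearest profile to Fbn2, Scara3, was at 0.40, farther than for the other 3 genes examined. Fbn2 was read rarely, with a variation from counting alone of 21.1% to 27.2% by group, against 2.17% to 4.10% for Eln. The part of counting in the distance was not tested.

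Partner genes of elastic fibres were taken from lists by role. Of 45 listed genes 41 were tested, and 25 passed edgeR's test in MI vs Sham, all 25 higher, against 5.82% of all genes. The other 16 did not pass. In the microfibril and assembly list 12 of 19 rose, led by Ltbp2, a fibrillin-binding protein that also binds fibulin-5. It went from 3.87 ± 0.620 CPM in Sham to 85.0 ± 9.94 CPM in MI (SD, n = 4 each), a log2 fold change of 4.46 (edgeR adjusted p = 4.12e-12). Adamtsl2, a fibrillin-1-binding glycoprotein, followed with 2.58, Fbln7 with 2.26 from 2 to 7 reads per Sham library, and Adamts17 with 1.70. The microfibril gene Mfap2 rose by 0.86 and the latent TGF-beta binding protein gene Ltbp3 by 0.83. Adamtsl3, Adamts10, Hmcn2 and Mmrn1 rose by 0.74, 0.73, 0.67 and 0.65, and Ltbp1 and Ltbp4 by less. The Emilin genes were not past the threshold, with log2 fold changes from 0.32 to 0.50.

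Of the 5 lysyl oxidases, which crosslink elastin and collagen, 4 rose. The log2 fold changes were 1.64 for Loxl1, 1.17 for Loxl2 and 1.11 for Lox and smaller for Loxl3, while Loxl4 had 0.20 without passing. Proteases able to cut elastin rose in 5 of 7 cases. Ctsk and Ctss, cathepsins K and S, had 1.18 and 1.10, and the matrix metalloproteinase genes Mmp14 and Mmp2 had 0.92 and 0.70. Mmp9 had 0 reads in every Sham library and 1 to 18 in the MI libraries, and Mmp12 had at most 1 read per Sham library and 2 to 193 per MI library (edgeR adjusted p = 0.0780), so no fold is given for either. Among receptors and chaperones 2 of 4 rose, the procollagen and tropoelastin chaperone Fkbp10 with 0.78 and, by less, Glb1. In the list of integrins 2 of 6 rose, Itga8 with 1.49 and, by less, Itgb1. Of the 25 genes 6 lost their call when single rats were left out. Ltbp4, Mmrn1 and Itgb1 passed in 4 of the 8 such fits, Glb1 in 5, Mmp9 in 3 and Loxl3 in 1.

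Between MI + UA and MI, 0 of the 41 pathway genes passed the test by edgeR or by DESeq2, and 4 of the 41 had an unadjusted p-value under 0.05, against 3.79% of all genes. All 4 were assembly partners and lower with UA. They were Hmcn2 (log2 fold change -0.38), Adamtsl2 (-0.46), Adamts10 (-0.26) and Adamtsl4 (-0.19). The MI + UA and MI rats were apart for 3 of the 41 genes, Adamts10, Adamtsl4 and Mfap2 (-0.29), and for 2.34% of all genes. Without MI rat 57, Adamtsl2 was -0.099 and Hmcn2 -0.24. Ltbp2 and Loxl1 had 0.016 and -0.16, and their values moved from -0.13 to 0.12 and from -0.35 to -0.050 when single rats were left out (lowest without rat 64, highest without rat 66). Against Sham, 21 of the 41 genes passed in MI + UA, all higher, as did 5.16% of all genes in that direction.

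Elastic fibre genes are expressed mainly by fibroblasts and vascular smooth muscle cells, so markers of the heart's cell types were read beside them. In MI vs Sham 5.82% of all genes tested passed the test upward, and 1006 of the 18182 passed it downward. Of 10 fibroblast markers 7 rose in MI, among them Pdgfra by 0.49, while Dcn and Gsn had 0.19 and 0.15 and did not pass. Their summed level was 1682 to 2112 CPM in Sham, 2832 to 4401 CPM in MI and 2889 to 4259 CPM in MI + UA. The group means of the list's 3 collagen genes added up to 822 CPM in Sham and 2221 CPM in MI, and those of its other 7 markers to 1088 CPM in Sham and 1356 CPM in MI. Of 8 smooth muscle markers 3 rose (Tagln, Cnn1 and Acta2), and the sum was 274 to 309 CPM in Sham and 304 to 436 CPM in MI. Myh11, the smooth muscle myosin, had a log2 fold change of 0.45 (edgeR adjusted p = 0.0813).

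Macrophage markers rose in 7 of 8 cases, with a sum of 86.7 to 101 CPM in Sham and 153 to 204 CPM in MI. All 7 cardiomyocyte markers tested passed the test downward, against 1006 of the 18182 genes tested, and the median of their log2 fold changes was -0.43. The endothelial sum was 671 to 748 CPM in Sham and 566 to 653 CPM in MI, with 1 of 8 genes past the test and lower (Kdr), and the pericyte sum 952 to 976 CPM and 896 to 1018 CPM, with Pdgfrb the only 1 of 6 genes that rose. None of the genes in these 6 lists was at 0 in all libraries of a group. The part of these cell types in the rise of the elastic fibre genes was not tested. The median log2 fold change over all genes of a list was 1.21 for the 10 elastic fibre genes, 0.80 for the fibroblast list and 0.49 for the smooth muscle list, and the collagen genes Col1a1, Col3a1 and Col1a2 of the fibroblast list rose by 1.56, 1.45 and 1.26.

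**Figure D5:**
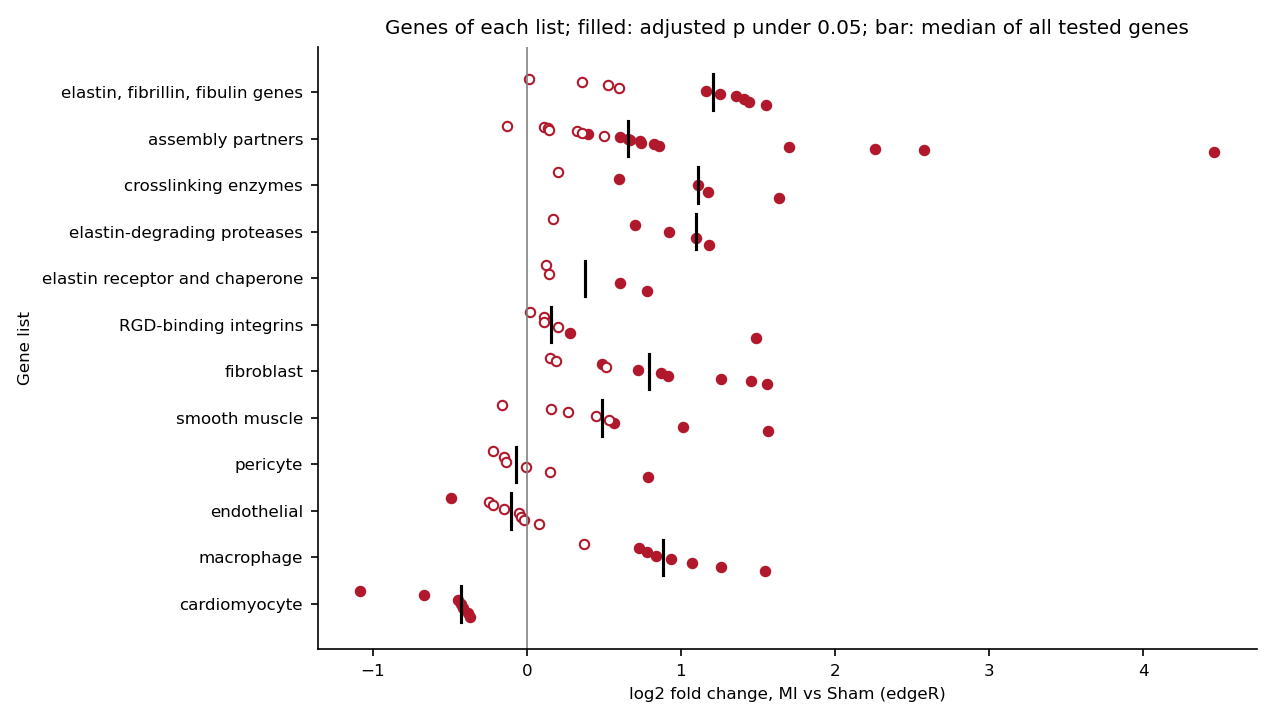
Log2 fold change in MI vs Sham (horizontal axis, edgeR) of the genes of each list shown (rows). Filled points had an adjusted p-value under 0.05, and black bars are the medians of all tested genes of a list. Lists of atrial, adipocyte and epicardial mesothelial markers are not drawn, with medians of 0.78, 1.89 and 0.80 over 3, 3 and 6 tested genes. Mmp9 and Mmp12, with 0 or at most 1 read per Sham library, are not drawn; the median is 1.21 for the elastin, fibrillin and fibulin genes, 1.11 for crosslinking enzymes and -0.43 for cardiomyocyte markers.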

How the data were processed

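The authors depleted ribosomal RNA, made strand-specific libraries, mapped read pairs to the rat genome (mRatBN7.2) with STAR 2.6.1c, checked the alignments with MultiQC 1.8 and counted reads per Ensembl gene with htseq-count, per the methods of the study and, for the tools and the build, the submitters' processing notes. The RNA is labelled as polyA RNA, whereas the methods describe depletion of ribosomal RNA, which is followed here. The strand setting of the counting is not given in the sources used here. The deposited values are raw counts, without normalization, for 30560 genes in 12 rats. The 5 summary lines of the count table were left out. Ambiguous reads made up 3.50% to 4.14% of counted reads. Another MI + UA library was excluded by the authors and was not analysed here. Labels and methods differ on the UA dose, which is not given here.

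A sum of at least 10 counts over the 12 rats was required of a gene, and the 18182 that met it were tested with edgeR 4.0.16 (TMM, glmQLFit and glmQLFTest, 3 groups in 1 fit) in R 4.3.3, with Benjamini-Hochberg adjustment over all of them and a threshold of 0.05. CPM are TMM-scaled, and log2 CPM for profiles used a prior count of 1. Each library is 1 rat, so the spread is between rats. Gene pairs were tested with exact permutation tests, adjusted over 8 pairs. DESeq2 1.42.0, other filters and scalings, only the 2 groups compared, rat 66 in MI, and leaving out each rat were the alternatives. All 10 genes are named in each comparison, as are the pathway genes past the threshold, with values for the 20 of largest change in MI vs Sham. Markers are given by list, with examples. The members and lists were chosen with earlier results of these data known. Sequences come from RefSeq (GRCr8). No genome of the count build was used here, so gene coordinates are not given. The edgeR steps were tested on simulated counts for MI vs Sham with 200 changed genes, of which those changed by 0.5, 1 and 2 on the log2 scale were called in 36%, 90% and 100% of cases. Figures were drawn with matplotlib 3.10.9.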

Additional observations from a re-analysis of the deposited data

Results flagged for a closer look

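In 54 groups of 4 rats (member levels and pair ratios), 3 held a rat that stood apart by Dixon's ratio, the gap to the nearest rat over the whole range beyond its 95% limit. Chance flags about 1 in 20 groups, or about 3 of 54. Sham rat 12 was the lowest of its group for Eln (ratio 0.862) and for Fbn1 (ratio 0.858), at 65.6 and 62.0 CPM. The label of rat 12 carries a suffix that no other rat's label has, and the labels do not explain it. MI + UA rat 29 had the highest log2 ratio of Fbln5 to Eln, -2.37 (ratio 0.870), with the other 3 MI + UA rats between -3.10 and -3.01. Leaving out any 1 rat, rat 12 included, kept the log2 fold change of Eln in MI vs Sham between 1.34 and 1.53 and that of Fbn1 between 1.23 and 1.45.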

How the results depend on the processing

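The 6 genes that rose in MI vs Sham passed edgeR's or DESeq2's test under all 15 alternatives, 8 of which left out 1 rat. The number of members past the threshold ranged from 6 to 7, of pathway genes from 20 to 25, and of all genes from 1468 to 1941 when 1 rat was left out and from 1913 to 2216 otherwise. In MI + UA vs Sham 6 members passed throughout. In MI + UA vs MI, keeping genes with at least 1 count gave 3 genes past the threshold and leaving out MI rat 36 gave 1 (range 0 to 1 when 1 rat was left out), with 0 members each time. The cause was not tested.

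Changes of sign were limited to small or imprecise estimates. Leaving out 1 rat moved Efemp1 in MI vs Sham between -0.050 and 0.098. In MI + UA vs MI it moved Fbn2 between -1.08 and 0.18, Fbln1 between -0.088 and 0.11, Efemp2 between -0.20 and 0.056, and Mfap5 between -0.24 and 0.0077. Without rat 58, Fbn2 in MI + UA vs Sham was -0.55 (highest 0.73 without another rat). Counting rat 66 in MI gave Fbn1 0.061, Fbn2 0.27, Fbln5 0.056, Efemp2 0.12 and Mfap5 0.035 in MI + UA vs MI. Fbln1 there was -0.00063 with only the 2 groups in the fit and -0.0013 with filterByExpr. Among pair ratios, leaving out 1 rat moved Eln to Col1a1 in MI vs Sham between -0.16 and 0.0021, and in MI + UA vs MI it moved Fbn2 to Fbn1 between -0.82 and 0.046, Fbln5 to Eln between -0.057 and 0.23, and Mfap5 to Mfap4 between -0.0056 and 0.17. With rat 66 counted in MI, 2 of 8 pairs passed in MI vs Sham, Fbn2 to Fbn1 (-1.03) and Fbln5 to Eln (-1.08), both with an adjusted p of 0.0317 by the exact permutation test. No paired analysis was possible because each rat belongs to 1 group only and the rat numbers are not shared between groups. Fbn2 had 11 to 52 counts per library, and its spread in MI + UA (coefficient of variation 99.8%) was above that of counting alone (22.3%).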

Other observations

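The share of each gene in all reads on the 10 genes was also read, with no test, and the genes named were picked after their values were seen. Fbln5 made up 5.32% to 6.69% of these reads in Sham, 2.65% to 3.81% in MI and 2.79% to 3.60% in MI + UA. Efemp1 made up 1.895% to 2.82% in Sham, 0.896% to 0.991% in MI and 1.12% to 1.37% in MI + UA. Its level in CPM overlapped between all 3 groups, while the summed level of the 10 genes was higher in both infarcted groups than in Sham, so that these shares show no shift of Efemp1 itself. The share of Eln was 20.5% to 23.5% in Sham, 24.0% to 28.3% in MI and 18.7% to 28.6% in MI + UA, where it spread the widest.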
